A study of Mus musculus with 6 samples.

Results

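The cytosolic ribosomal protein genes were examined for open chromatin at their promoters in mouse kidney. The set comprised 81 of the 21757 protein-coding genes of the GENCODE M39 annotation, taken by gene name, with 32 genes of the small subunit (Rps genes and Rpsa) and 49 of the large subunit (Rpl genes and the stalk genes Rplp0, Rplp1 and Rplp2). By name, 5 of the 81 are paralogs of a core ribosomal protein gene: Rpl3l, Rpl10l, Rpl39l, Rps4l and Rps27l. For each gene, the intervals of the deposited peak list that reached within 1 kb of the start of its canonical transcript were collected, and the gene took the values of the highest summit among them. At least 1 such interval was found for 79 of the 81 genes.

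Open chromatin had been measured by ATAC-seq, in which the Tn5 transposase inserts sequencing adapters into exposed DNA, on nuclei from kidney cortex. The libraries mapped here were 3 from WT mice, by the methods littermates with floxed Acly alleles and no Cre, and 3 from Acly cKO mice, which carry 2 floxed Acly alleles and Ksp-Cre. ACLY, ATP citrate lyase, makes cytosolic acetyl-CoA from citrate, and the Ksp promoter (the promoter of Cdh16) drives Cre in kidney tubule epithelium, so other cells of the cortex keep the gene. All 6 carried the treatment label Control, and the sources used here give no age for the ATAC-seq mice. Labels placed the WT libraries in batches 1 and 2 and the knockouts in batches 4 and 5, and a batch effect cannot be told apart from one of genotype.

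The authors called peaks once on pooled libraries, and the values below are theirs. The paper's ATAC-seq also used WT libraries from an earlier deposit, and which libraries entered the pool is not shown. Fold enrichment is the height of a summit over the caller's background, a linear ratio, and the −log10 q is the caller's score of the same height. Over the 279569 intervals, the −log10 q never fell as the fold enrichment rose, so both are given as 1 measure and not as 2 lines of evidence. No column belongs to a single library: the sequencing depth is unknown, values come without a replicate error, genotypes could not be compared, and differences between genes are described without a test. A pooled signal from cortex cannot separate many cells with moderately open chromatin from few cells with very open chromatin. Among markers, all 5 proximal tubule genes had a promoter interval, with a median of 9.56-fold within 1 kb of the start and from 5.30-fold at Slc22a6 to 33.1-fold at Lrp2. Of 5 genes of other organs, 3 had one, at 3.4-fold for Ins2, 2.95-fold for Alb and 1.96-fold for Gfap, and Myh6 and Krt5 had none. The genes of the thick ascending limb and distal tubule ran from 8.38-fold to 20.8-fold, with a median of 8.51-fold and a lowest value of 4.39-fold within 1 kb. Markers of rarer kidney cells varied. Podocyte genes ran from 3.14-fold at Nphs1 to 9.76-fold at Wt1, and endothelial genes from 2.03-fold at Pecam1 to 8.64-fold at Kdr. Of the leukocyte genes, Ptprc had 1.90-fold, Cd68 had 31.2-fold, or 11.2-fold within 1 kb, and Cd3e had no interval. The collecting duct genes ran from 3.54-fold to 4.19-fold and the stroma genes from 5.63-fold to 10.9-fold.

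Ribosomal proteins assemble with ribosomal RNA into the small subunit, which decodes mRNA, and the large subunit, which forms peptide bonds. Their genes are transcribed in nearly every cell type, in matched amounts, and many host small nucleolar RNAs (snoRNAs) in their introns. Their mRNAs characteristically begin with a C followed by a run of pyrimidines, the terminal oligopyrimidine (TOP) tract, through which mTOR signalling controls their translation.

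The tract is best seen in the start sequences themselves. RefSeq starts were available for 60 of the 81 genes, and at 13 of these a C followed by at least 4 pyrimidines began exactly at the annotated first base. The 3 of these 13 with the highest and the 3 with the lowest promoter fold enrichment are shown with 60 bases before the start and 15 from it, on the sense strand of the RefSeq table of GRCm38.p6, and capitals mark the tract:
Rpl15: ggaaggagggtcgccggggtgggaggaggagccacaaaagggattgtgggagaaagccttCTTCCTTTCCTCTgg
Rps21: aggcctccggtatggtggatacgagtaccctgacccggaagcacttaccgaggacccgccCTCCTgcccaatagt
Rpl28: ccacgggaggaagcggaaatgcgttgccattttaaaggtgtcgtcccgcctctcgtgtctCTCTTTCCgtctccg
Rps15a: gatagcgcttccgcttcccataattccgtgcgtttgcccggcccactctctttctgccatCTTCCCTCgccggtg
Rpl38: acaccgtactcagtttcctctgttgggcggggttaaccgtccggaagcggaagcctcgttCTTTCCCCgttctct
Rpl35a: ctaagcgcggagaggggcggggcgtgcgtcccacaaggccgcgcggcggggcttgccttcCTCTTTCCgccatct

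The tract ran for 13 bases at Rpl15, for 5 at Rps21 and for 8 at the other 4 genes. The promoter values ran from 105-fold at Rpl15 to 19.97-fold at Rpl35a, a span set by picking the extremes of the 13. The 24.1-fold summit of Rpl38 lay 6878 bp from its start, and within 1 kb Rpl38 had 20.3-fold.

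At any RefSeq start of a gene, a tract exactly at the first base was found for 13 of the 60 ribosomal protein genes (21.7%), against 2.84% of the 15319 protein-coding genes in the same table. It was found for 0 of 69 mitochondrial ribosomal protein genes and 0 of 32 proteasome subunit genes. When the tract was allowed to begin within 5 bases of the start, it was found for 28 of the 60 (46.7%), against 22.4% of all genes, 24.6% of the mitochondrial ribosomal and 21.9% of the proteasome genes. At the canonical GENCODE starts used for the peaks, the same looser search found 22 of 81 (27.2%), against 19% of all protein-coding genes, 16.7% of the mitochondrial ribosomal and 25.6% of the proteasome genes. A tract exactly at the canonical start was found for 8.64% of the set, 3.62% of all genes, 3.85% of the mitochondrial ribosomal and 7.69% of the proteasome genes. The RefSeq and canonical searches differ in the annotation, in the genes included and in the number of starts, with 72 RefSeq starts for the 60 genes. How much each difference contributes was not tested. Among the genes shown above, Rpl28 and Rpl38 had a tract exactly at a RefSeq start and none within 5 bases of the canonical start. Rpl15, Rps21, Rps15a and Rpl35a had one in both searches. The canonical shares thus depend on where the start is annotated. At the base just upstream of the canonical start, 70.4% of the ribosomal protein genes and 58.2% of all protein-coding genes had a pyrimidine.

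Promoter intervals were found at 79 of the 81 ribosomal protein genes (97.5%), against 75.8% of all protein-coding genes. The lists set beside them were also near complete, with 77 of 78 mitochondrial ribosomal protein genes and 39 of 39 proteasome subunit genes. All 32 small subunit genes had an interval. Of the 49 large subunit genes, the exceptions were Rpl10l and Rpl39l, both paralogs known for expression in the testis. Around Rpl10l the nearest interval lay 7285 bp away and was weak, at 2.03-fold. The one nearest to Rpl39l lay 22026 bp away and was stronger, at 31.2-fold.

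The median fold enrichment was 38.6 over the 79 genes, with an interquartile range of 29.4 to 58.4. Over the 16499 protein-coding genes with an interval, the median was 30.1 and the interquartile range 12.4 to 48.3. A value above that median was reached by 58 of the 79. At least 20-fold enrichment was reached by 74 of the 81 ribosomal protein genes (91.4%), against 49.3% of all protein-coding genes, 83.3% of mitochondrial ribosomal and 92.3% of proteasome genes. The median of the set lay between that of the mitochondrial ribosomal protein genes, 31.9, and that of the proteasome genes, 40.5.

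**Figure D1:**
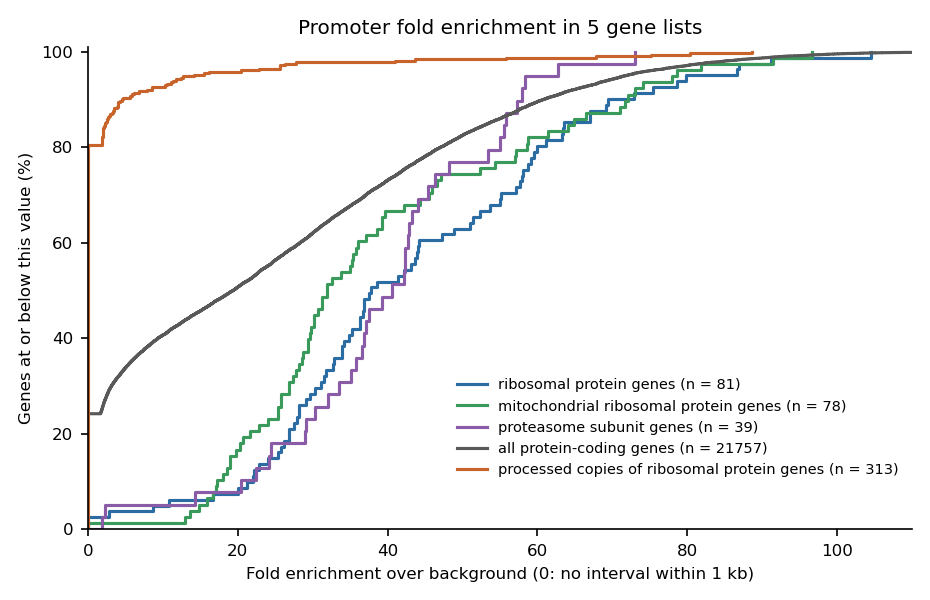
Cumulative share of genes (vertical axis, percent) at or below a given promoter fold enrichment over the caller's background (horizontal axis), with genes lacking an interval placed at 0. Lines stand for the 81 ribosomal protein genes, 78 mitochondrial ribosomal protein genes and 39 proteasome subunit genes. Further lines stand for 21757 protein-coding genes and 313 processed copies of ribosomal protein genes. Over most of the range the first 3 lines lie to the right of all genes. They end at lower maxima, 105-fold, 96.7-fold and 73-fold, against 162-fold for all genes. The copies lie far to the left.

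Within the set, values ran from 2.82-fold to 105-fold, a 37.1-fold range, but the upper quartile was only 1.99 times the lower. The small subunit genes had a median of 43.6 (n = 32) and the large subunit genes of 36.7 (n = 47). The 3 lowest core genes, Rpl4, Rpl19 and Rpl35a, all belong to the large subunit.

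The highest was Rpl15, which encodes a structural protein of the large subunit and lies on chromosome 14. Its 4159-bp interval, chr14:4196996-4201154 on GRCm39, peaked at 105-fold with a −log10 q of 2581, higher than 99.7% of the protein-coding genes with an interval. The summit stood 134 bp upstream of the start, between Rpl15 and the divergent gene Nkiras1, an NF-kappaB inhibitor-interacting protein, whose start was 153 bp from that of Rpl15 and 19 bp from the summit. Rps29, a zinc-binding small subunit protein, followed with 91.2-fold at a summit 48 bp upstream of its start. At Rpl37, a zinc-binding large subunit protein, the summit 139 bp upstream reached 86.9-fold. Rps19, the gene most often mutated in Diamond-Blackfan anaemia, had 86.6-fold enrichment with the summit 4 bp into its first exon. Of these 4, Rpl15 alone had another protein-coding start in its interval.

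**Figure D2:**
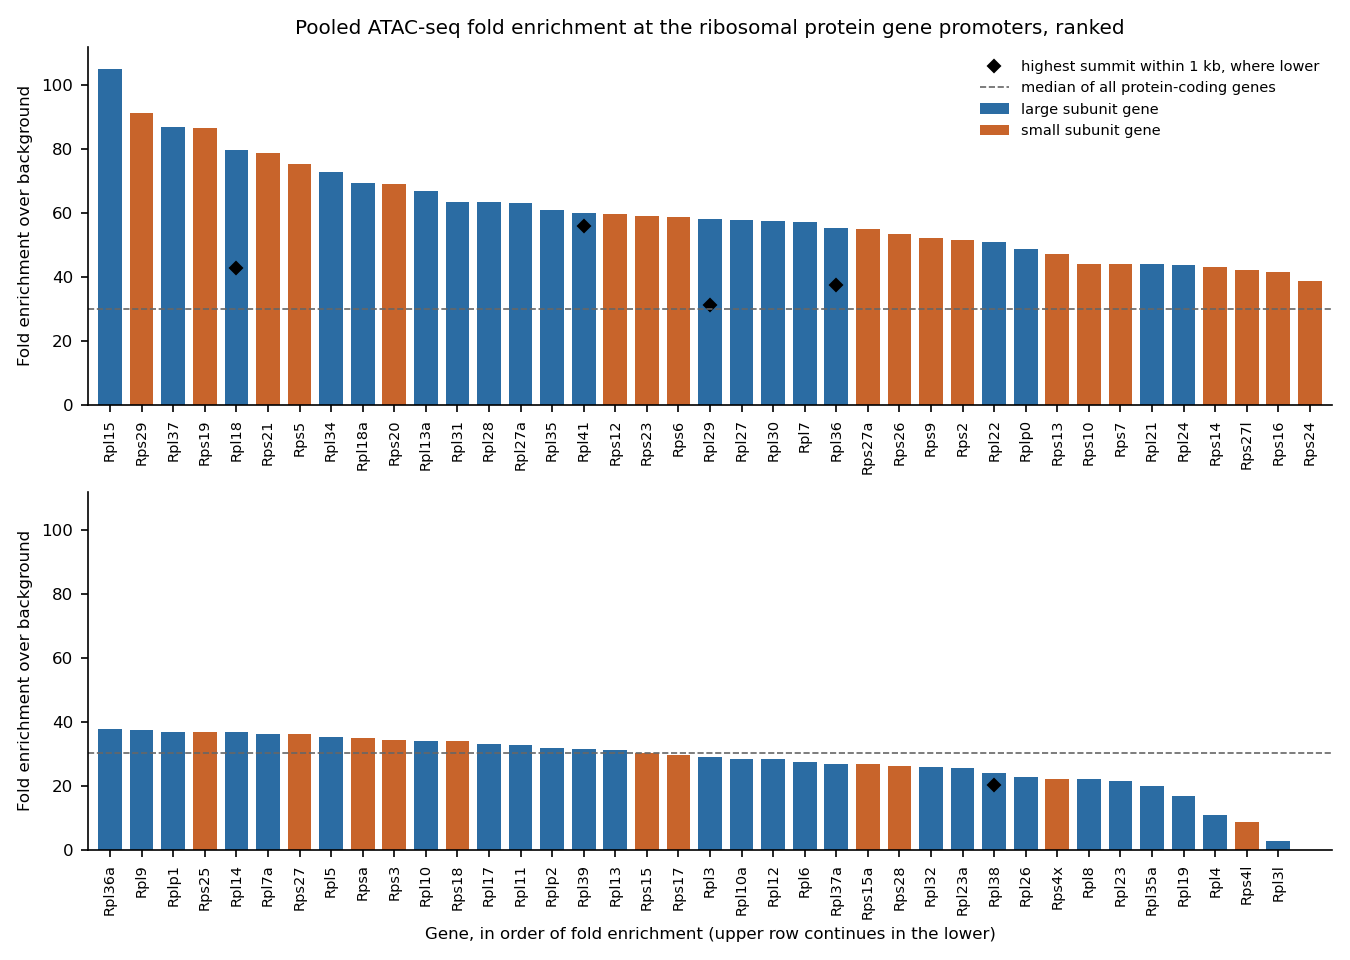
Fold enrichment over background (vertical axis) of the highest summit in the promoter interval of 77 ribosomal protein genes, ranked from left to right over 2 rows, with large subunit genes in blue and small subunit genes in orange. Diamonds give the highest summit within 1 kb of the start for the 5 genes where it was lower, and the dashed line marks the median of all protein-coding genes with an interval, 30.1; 57 bars exceed it.

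The fifth highest value was that of Rpl18, but its 79.9-fold summit lay 13051 bp upstream of the start, within an interval of 26735 bp. That summit was 118 bp from the start of Dbp, a circadian transcription factor gene, and the same interval also held the starts of Sphk2, Car11 and Fam83e. Within 1 kb of the Rpl18 start the highest summit reached 42.7-fold. The highest summit lay over 1 kb away in 6 of the 79 genes (7.59%), against 10.7% of all protein-coding genes with an interval. The share was 2.6% for mitochondrial ribosomal and 7.69% for proteasome genes. Besides Rpl18, the highest summit is described here for 4 more of these genes. It was 61 bp from the start of Acy1, the aminoacylase gene, for Rpl29 (58.1-fold, and 31.2-fold within 1 kb), and 156 bp from that of Micos13, a mitochondrial cristae gene, for Rpl36 (55.2-fold, and 37.4-fold within 1 kb). For Rpl38 it was 38 bp from the start of Ttyh2 (24.1-fold, and 20.3-fold within 1 kb), and for Rpl41 it was 5 bp from that of Zc3h10 (59.9-fold, and 56.0-fold within 1 kb). When each gene took its highest summit within 1 kb, the median was 37.4 for the ribosomal protein genes and 28.5 for all protein-coding genes, and 74 ribosomal protein genes still reached 20-fold.

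Values just under 20-fold and below were found for 5 genes. Rpl35a, a Diamond-Blackfan anaemia gene, had 19.97-fold enrichment at a summit 156 bp downstream of its start and 2 bp from the start of Iqcg. Rpl19 had 16.7-fold enrichment, 81 bp upstream of its start. At Rpl4, whose protein lines the tunnel through which the nascent chain leaves the ribosome, the summit 88 bp downstream reached 10.9-fold, higher than 23.0% of the protein-coding genes with an interval and 41.6% of all protein-coding genes. The Rpl4 interval of 1746 bp, chr9:64079636-64081381, also held the start of Zwilch, a kinetochore gene oriented away from it at 232 bp. The paralogs Rps4l, at 8.71-fold, and Rpl3l, at 2.82-fold, were lower still. Rpl3l replaces Rpl3 in heart and skeletal muscle, and its −log10 q was 7.72 against 476 for Rpl3, which had 29.1-fold enrichment.

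To set the extremes side by side, the starts of Rps29 and Rpl37, of the 3 lowest genes and of the other paralogs are given from 100 bases before the canonical start to 15 bases from it, read from GRCm39 on the sense strand. Capitals mark a tract where one began within 5 bases of the start.
Rps29 (chr12:69205946-69206060, minus strand): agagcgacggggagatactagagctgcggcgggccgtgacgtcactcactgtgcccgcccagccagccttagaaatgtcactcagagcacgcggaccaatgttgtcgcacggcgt
Rpl37 (chr15:5146006-5146120, plus strand): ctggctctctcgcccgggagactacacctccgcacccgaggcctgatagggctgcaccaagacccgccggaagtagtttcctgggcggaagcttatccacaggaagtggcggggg
Rpl4 (chr9:64080518-64080632, plus strand): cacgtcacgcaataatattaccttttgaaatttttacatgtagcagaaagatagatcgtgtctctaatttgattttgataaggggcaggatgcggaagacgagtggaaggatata
Rps4l (chr6:148255998-148256112, plus strand): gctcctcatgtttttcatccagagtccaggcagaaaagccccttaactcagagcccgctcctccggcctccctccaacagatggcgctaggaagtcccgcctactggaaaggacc
Rpl3l (chr17:24946651-24946765, plus strand): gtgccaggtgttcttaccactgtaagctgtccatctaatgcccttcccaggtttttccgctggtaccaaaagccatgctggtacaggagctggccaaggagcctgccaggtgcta
Rpl10l (chr12:66331167-66331281, minus strand): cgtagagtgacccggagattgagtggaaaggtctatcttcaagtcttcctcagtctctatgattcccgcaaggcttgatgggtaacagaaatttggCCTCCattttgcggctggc
Rpl39l (chr16:9987981-9988095, plus strand): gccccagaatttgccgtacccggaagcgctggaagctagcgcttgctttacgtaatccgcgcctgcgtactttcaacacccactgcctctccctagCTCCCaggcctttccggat
Rps27l (chr9:66853240-66853354, plus strand): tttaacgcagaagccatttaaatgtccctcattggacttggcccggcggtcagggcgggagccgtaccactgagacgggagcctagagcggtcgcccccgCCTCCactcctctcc

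In these windows, tracts of 5 pyrimidines were found at Rpl10l, Rpl39l and Rps27l, and none at the others. Rpl10l and Rpl39l had a tract and no interval, and Rps29 and Rpl37 had no tract at that start and ranked just below Rpl15. The tracts of Rpl10l and Rpl39l began 4 bases before the canonical start, and a tract this near was found at 19% of all protein-coding genes. The annotated span of Rpl37 began upstream of its canonical start, so the window shown is not that of its outermost start. Whether tract and fold enrichment are related was not tested. Rps27l, a p53 target, differed from the other 4 paralogs in having a promoter at 42.2-fold, above the median of the set, with its summit 34 bp upstream of the start.

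The stalk of the large subunit recruits the elongation factors, and its 3 genes had intermediate values. Rplp0 had 48.8-fold enrichment, Rplp1 36.9-fold and Rplp2 31.8-fold. Loss of 1 copy of certain ribosomal protein genes causes Diamond-Blackfan anaemia, a failure of red cell production. A list of 9 such genes, which is not complete and leaves out Rpl15 and Rps29, spanned from 19.97-fold at Rpl35a to 86.6-fold at Rps19. Of the 9, 8 reached 20-fold, against 91.4% of the set and 49.3% of all protein-coding genes, and the median of the 9 was 38.6. Rpl5 and Rpl11, whose proteins join in the particle that binds Mdm2 when ribosome assembly fails, were close together at 35.2-fold and 32.7-fold.

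The 4 X-linked genes all lay below the median of the set. Rpl36a had 37.8-fold enrichment, Rpl10 33.9-fold, Rpl39 31.6-fold and Rps4x 22.1-fold. Their median was 32.7 against 42.2 for the 75 autosomal ribosomal protein genes with an interval. Over all protein-coding genes, the median was 22.5 on the X chromosome and 30.4 on the autosomes, so both sets showed lower values on the X. Whether the X chromosome accounts for the lower values of these 4 genes was not tested. The testis-linked Rpl10l and Rpl39l, which had no interval, are the autosomal counterparts of the X-linked Rpl10 and Rpl39, both of which did.

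Ribosomal proteins whose genes fall outside the naming scheme were described with the same measures. Of 8 such genes, 7 had an interval, from 26.1-fold to 70.4-fold, with a median of 48.6. Fau, which encodes a small subunit protein fused to a ubiquitin-like one, had 26.8-fold enrichment. Rack1, the signalling scaffold of the small subunit, had 27.8-fold. The paralogs Rpl22l1, Rpl36al and Rpl7l1 had 61.3-fold, 70.4-fold and 26.1-fold enrichment. Rps3a1, added after its value was seen, had 48.6-fold, and Rps27rt, a retrogene, had no interval.

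Genes of the same programme were also open. A list of 13 translation factors and related genes, known for TOP mRNAs, was set beside the set, and the search found a tract near the canonical start of 4 of them. All 13 reached 20-fold, against 49.3% of all protein-coding genes and 92.3% of proteasome genes. Their median was 55.3, or 49.8 when the summit had to lie within 1 kb. They ranged from 42.4-fold at Eef1d to 82.8-fold at Tpt1, but the summit of Eef2 lay 6229 bp from its start, and within 1 kb Eef2 had 27.3-fold. The elongation factor gene Eef1a1 and the poly(A)-binding protein gene Pabpc1 each had 71.2-fold. Of 17 ribosome assembly and RNA polymerase I genes, 16 reached 20-fold, beside the same 49.3% and 92.3%, with a median of 39.6. Within 1 kb, 15 did so, with a median of 38.6, and no share over all genes is given for that measure. Ncl, the gene of the nucleolar protein nucleolin, was highest at 93.1-fold. Pes1, needed for large subunit processing, had 18.1-fold, and Ubtf, an RNA polymerase I factor, had 23.7-fold at a summit 1056 bp away and 15.8-fold within 1 kb. The 73.5-fold summit of Nop10 lay 3652 bp away, and within 1 kb Nop10 had 38.6-fold.

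The summits of ribosomal protein genes lay close to the annotated start. The highest summit of the interval was within 100 bp of the canonical start for 49 of the 79 genes (62.0%), against 50.6% of all protein-coding genes with an interval, 66.2% of mitochondrial ribosomal and 71.8% of proteasome genes. Taking the highest summit within 1 kb, the number was 55 of 79 (69.6%), against 54.4% of all genes. These summits were at or downstream of the start in 45 genes (57.0%), against 55.7% over all genes. They fell in untranslated sequence of the first exon in 43 genes, in coding sequence of the first exon at Rps4l, in the first intron at Rps15a, and upstream of the start in 34. The farthest summits within 1 kb were those of Rpl10, 494 bp upstream, and Rpl35, 434 bp downstream.

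**Figure D3:**
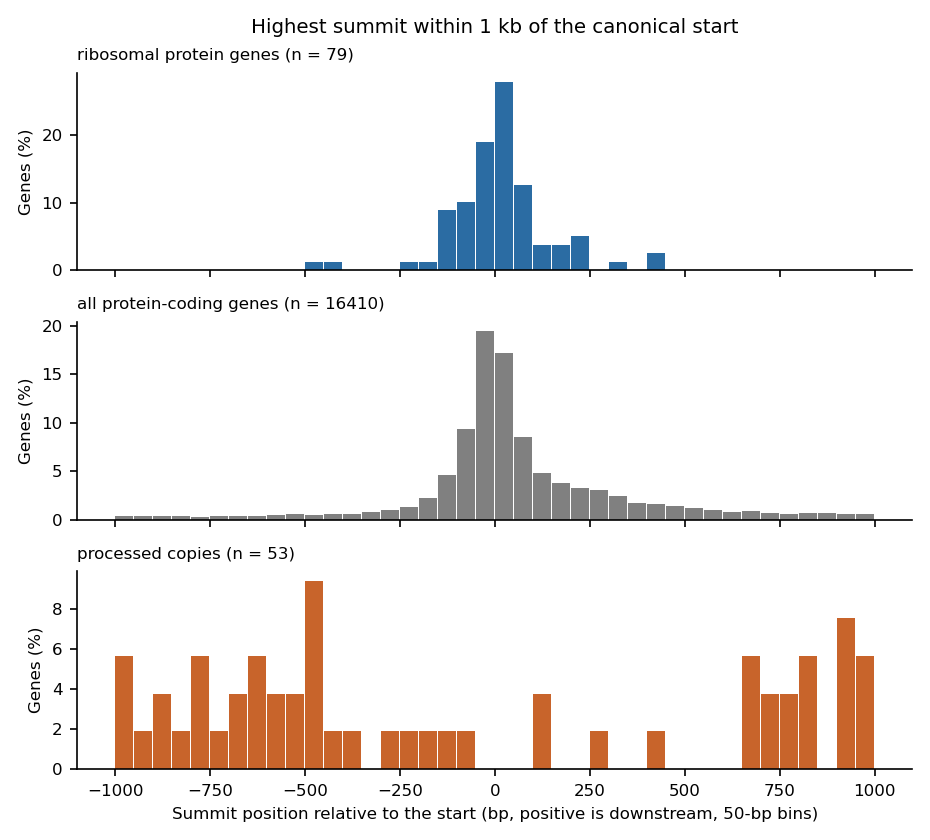
Position of the highest summit within 1 kb relative to the canonical start (horizontal axis, bp, positive is downstream) as the percentage of genes in 50-bp bins (vertical axis), for 79 ribosomal protein genes, 16410 protein-coding genes and 53 processed copies. The summits of ribosomal protein genes gather around the start as those of all genes do, while those of the copies are spread over the window.

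The intervals over these genes were wide. Their median width was 4257 bp, against 2955 bp over all protein-coding genes with an interval, 2717 bp for mitochondrial ribosomal and 2873 bp for proteasome genes. For each of the 79 genes the interval contained the canonical start (100%), against 92.2% over all genes, 100% of mitochondrial ribosomal and 97.4% of proteasome genes. From the start, the interval reached a median of 1454 bp upstream and 2526 bp downstream, compared with 1153 bp and 1643 bp over all genes. The number of summits in an interval had a median of 10, against 6 over all genes.

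Ribosomal protein genes are short, and their intervals often spanned much of the gene. The median gene length was 4086 bp, against 19173 bp over all protein-coding genes, and the interval covered a median of 63.8% of the gene, against 6.53%. The entire gene lay within its interval for 23 of 79 genes (29.1%), against 4.41% over all genes. Among the 1664 other protein-coding genes with an interval and a length from 2924 bp to 6710 bp, the interquartile range of the set, the median coverage was 41.5%, the fully covered share 16.3% and the median interval width 3250 bp. Among the 5886 other genes whose fold enrichment lay in the interquartile range of the set, the median width was 3603 bp. The median interval of the set was wider than in both of these lists, which were added after the values were seen and carry no test.

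**Figure D4:**
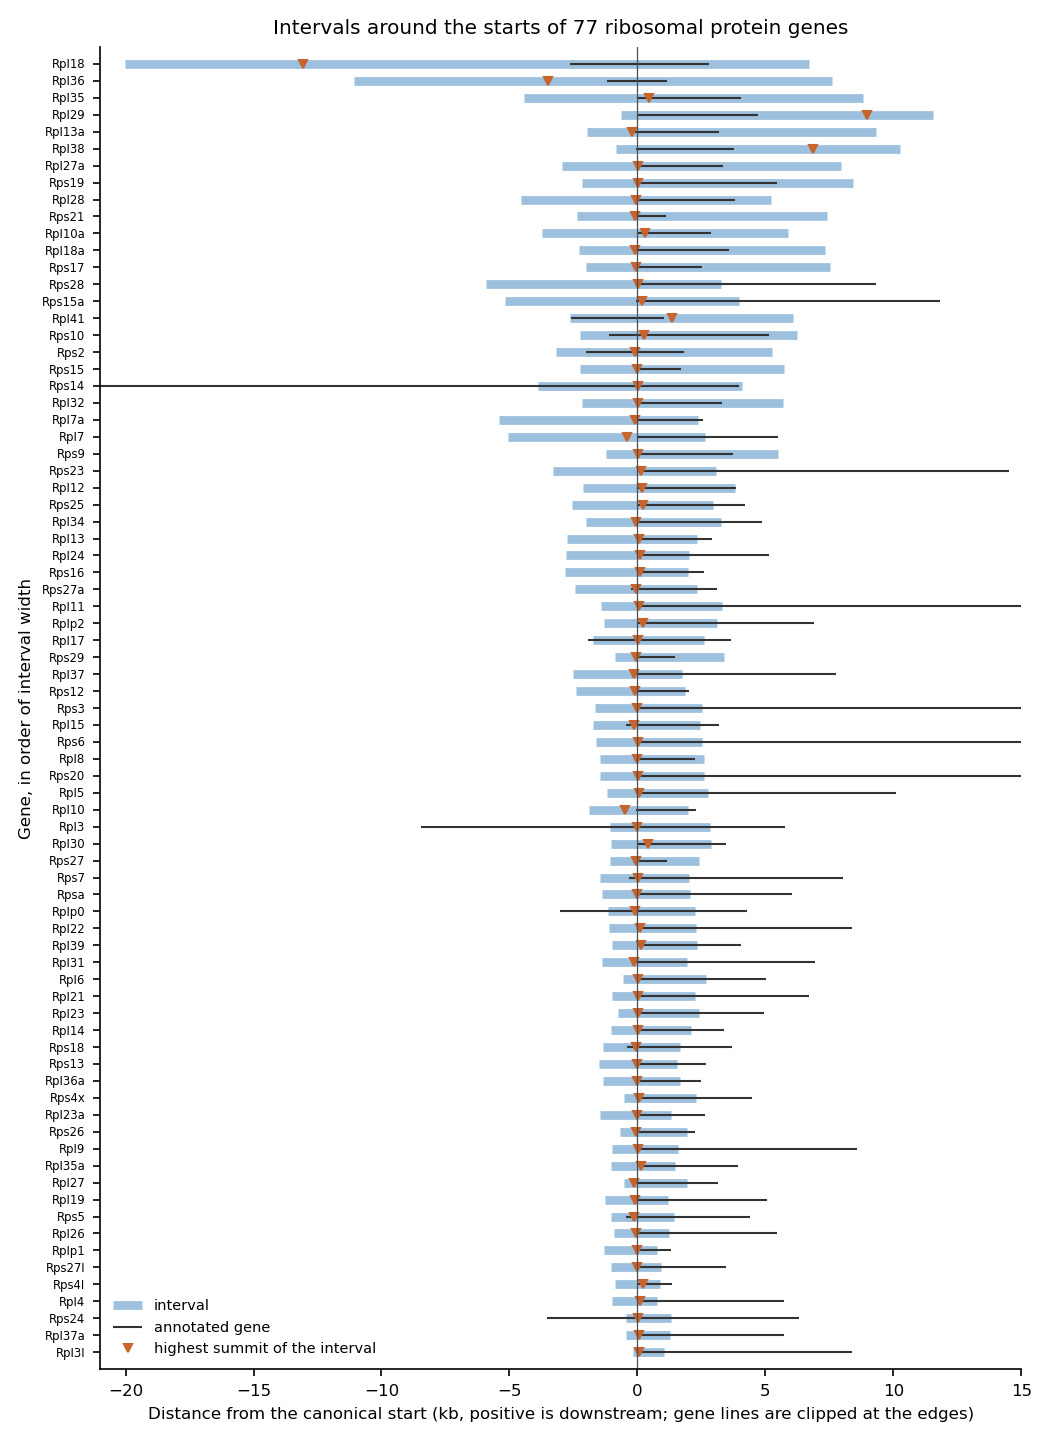
Promoter intervals of 77 ribosomal protein genes (pale bars) along the distance from the canonical start (horizontal axis, kb, positive is downstream), ordered by interval width, with the annotated gene as a thin line and the highest summit as a triangle. Most triangles sit at 0, and the 5 genes drawn with a highest summit over 1 kb away include Rpl18, Rpl36 and Rpl29.

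The widest intervals were those of Rpl18 (26735 bp), Rpl36 (18686 bp), Rpl35 (13245 bp), Rpl29 (12223 bp) and Rpl13a (11293 bp). Each of them held at least 1 other protein-coding start. The interval of Rpl13a was also that of another gene of the set and was counted for each. Another start was present in the intervals of 24 of the 79 genes (30.4%), against 17.6% over all protein-coding genes with an interval. The share was 36.4% for mitochondrial ribosomal and 25.6% for proteasome genes. It was 25.7% for the other genes of like length and 24% for those of like fold enrichment. Wide intervals with no other start, picked here after their values were seen, included those of Rpl27a, at 10908 bp, Rps19, at 10582 bp, and Rps21, at 9747 bp, which extended 8431 bp downstream of the start at Rps19 and 7395 bp at Rps21. These 3 genes lay entirely within their intervals.

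A divergent protein-coding start within 1 kb was found for 8 of the 81 genes (9.88%), against 5.04% of all protein-coding genes, 17.9% of mitochondrial ribosomal and 15.4% of proteasome genes. The distance was 1 bp between Rps28 and Ndufa7, a complex I gene, and 19 bp between Rpl18 and Sphk2, a sphingosine kinase gene. It was 36 bp between Rpl9 and Lias, 70 bp between Rps18 and Vps52, and 86 bp between Rps27a, a ubiquitin fusion gene, and Clhc1. For Rpl15, Rpl4 and Rpl7 it was 153 bp, 232 bp and 669 bp. These pairs included both the highest value of the set, at Rpl15, and the lowest of a core gene, at Rpl4.

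A snoRNA was annotated within 29 of the 81 genes (35.8%), against 1.21% of all protein-coding genes. The set held 57 of the 374 snoRNAs in protein-coding genes (15.2%), with 5 in Rpl4 and 4 in Rpl13a. The host genes had a median fold enrichment of 34.9 (n = 29) and the remaining genes of 43.4 (n = 50). The mitochondrial ribosomal protein genes held none.

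The promoter sequence from 250 bases before to 50 bases after the canonical start was searched on both strands for 8 motifs. The ETS core CCGGAAG was present in 25 of 81 ribosomal protein promoters (30.9%), against 10.3% of all protein-coding promoters and 12.8% of those with an interval. The same share was found for mitochondrial ribosomal (30.8%) and proteasome promoters (30.8%), so the ETS core was common to these housekeeping lists. Genes with the core had a median fold enrichment of 43.6 (n = 24) and those without of 37.4 (n = 55). The GC box GGGCGG was present in 50.6%, which lay above the 42.5% of all protein-coding promoters but below the 53.9% of those with an interval and the 64.1% of proteasome promoters. The E-box CACGTG was present in 13.6%, against 7.82% of all and 9.22% of those with an interval. CCAAT was present in 25.9%, against 39.9% and 38.7%. TATAAA was present in 12.3%, below the 13.2% of all promoters and above the 8.84% of those with an interval.

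The other 3 motifs were rare in the set. The YY1 sequence AAGATGGC was present in 3 of 81 promoters (3.70%), against 2.47%, the NRF1 sequence GCATGCGC in 2 (2.47%), against 3.69%, and the ZBED1 sequence TGTCGCGA in 0, against 0.225%. No motif of the search contains another. A match describes the letters of a window, with no information on whether a factor binds there.

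The promoter windows of the set had the same median GC content as all protein-coding genes, 54.3%, but a higher CpG observed-to-expected ratio, with a median of 0.82 against 0.52. The ratio was 0.76 for mitochondrial ribosomal, 0.78 for proteasome and 0.74 for the genes of like fold enrichment. Across the 79 genes, which share the same libraries and caller, fold enrichment went with GC content (Spearman's rho 0.41, Pearson's r 0.41) and interval width (rho 0.39, r 0.37). It went less with the CpG ratio (rho 0.20, r 0.19) and hardly with gene length (rho −0.06, r 0.02). Over the 16499 protein-coding genes the order differed, with rho 0.64 for interval width, 0.46 for the CpG ratio and 0.28 for GC content.

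Ribosomal protein genes have left many processed copies in the genome, intronless pseudogenes made from their mRNAs. The authors kept uniquely mapped reads alone, so reads that fit a gene and its copy equally well are not in these values. The annotation held 313 copies named after 60 parent symbols, with up to 24 for 1 parent. An interval was found within 1 kb of the start of 61 copies (19.5%), against 19.2% of all 10249 processed pseudogenes and 97.5% of the functional genes. The median fold enrichment of the 61 was 4.65, against 3.21 for all processed pseudogenes with an interval. For the highest summit within 1 kb it was 3.34, against 2.55. On this measure 0 of the 61 reached 20-fold, for which no share over all processed pseudogenes is given. The highest summit was within 100 bp of the start in 2 of the 61 (3.28%), against 8.39% of all processed pseudogenes with an interval. These 2 were Rpl17-ps1, at 2.03-fold, and Rpl36-ps1, at 2.75-fold. Where copies had high values, the summits were distant: 88.6-fold at 2041 bp for Rpl35a-ps7 and 80.4-fold at 2585 bp for Rpl30-ps3, which had 3.47-fold within 1 kb.

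Beside these values, the share of 50-base words that occur more than once in the genome was counted. Within 1 kb of the start it had a median of 4.66% for the ribosomal protein genes and 15.6% for the copies. Within 100 bp of the start it was 0% for 67 of the 81 genes and at most 29.3%, at Rpl31, which had 63.5-fold enrichment. At the 5 genes under 20-fold and at Rpl10l and Rpl39l, which had no interval, no word within 100 bp of the start was repeated. Within 1 kb the repeated share was 14.1% at Rpl10l and 0% at Rpl39l. Across the 79 genes, fold enrichment and the repeated share within 1 kb had a Spearman's rho of −0.04. Whether reads lost at repeated sequence lowered any of these values was not tested.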

How the data were processed

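Kidney cortex nuclei were profiled by ATAC-seq, and 3 WT and 3 Acly cKO libraries were mapped to groups from their labels. The authors trimmed 50-bp paired-end reads with fastp and aligned them to mm39 with Bowtie2 2.3.4.3. They removed duplicates and reads without a unique position, called peaks on the pool with MACS3 3.0.0 at a q of 0.05, and removed blacklisted regions with BEDTools 2.29.1. deepTools 3.5.1 is also listed in the submitters' processing notes. The deposited list gives for each summit a fold enrichment computed by the authors, a linear ratio. It also gives a −log10 q as deposited, a deposited score derived from the q, and the deposited offset of the summit. The deposited summits before filtering were not used here. Which libraries entered the pool is not shown by the files, and the depth behind each value is unknown.

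Rows were grouped into 279569 distinct intervals, and each gene took the highest summit of the intervals within 1 kb of its canonical start in GENCODE M39 on GRCm39. Genes whose name matches Rpl or Rps with a number and at most 1 further letter, Rplp0 to Rplp2 and Rpsa were members. Named genes were the members without an interval, the 5 highest, the 5 lowest, the 5 widest, the paralogs, and the stalk, Diamond-Blackfan anaemia, X-linked and shared-interval genes, and lists of related genes. Genes outside these rules are named as extremes or examples. Of these genes, 3 are not reported here by name, though they enter the counts and medians. The members, lists and thresholds were chosen with earlier results of these data known. A tract was a C followed by at least 4 pyrimidines. Repeated words were counted over both strands of the genome in windows of 50 bases. RefSeq start sequences matched 60 members by symbol.

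No test was run, since there is 1 pooled value per gene. Alternatives covered the threshold, the window, the summit and start taken, and the paralogs. The scripts were tested on simulated data. Python 3.11.15 was used with numpy 2.4.6, pandas 2.3.3, numba 0.67.0 and matplotlib.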

Additional observations from a re-analysis of the deposited data

How the results depend on the processing

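Of 28 alternative values for 5 results, 23 stayed within 1.5 times the reported one. The number of ribosomal protein genes with an interval stayed between 73 and 79, where 73 requires the highest summit itself to lie within 1 kb and 76 leaves out the paralogs. Their median fold enrichment stayed between 36.9 and 41.4. The 49 genes with a summit within 100 bp of the canonical start became 31 within 50 bp and 63 within 200 bp. They became 65 when the nearest annotated start was taken, so summit distances depend on the start chosen. No share over all protein-coding genes is given for these settings. The 22 genes with a tract near the canonical start became 7 when the tract had to begin exactly at the start and 11 when 6 pyrimidines had to follow the C. All protein-coding genes had 3.62% and 6.95% under these settings. The 61 processed copies with an interval became 37 within 500 bp and 95 within 2 kb. No share over all processed pseudogenes is given for these windows, so the counts show only the dependence on the window. The values for the highest summit within 1 kb and the tracts at RefSeq starts were added after the data were seen. No paired analysis was possible because the peak list has no column for a single library, and for the same reason no replicate could be left out. The unknown depth of the libraries limits every value, and a gene without an interval was not detected as open at this pooled depth, which does not show that it is closed.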
